A study of Mus musculus with 15 samples.

Results

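Acrosomal enzymes and egg-binding proteins were followed as 10 genes in mouse testis at postnatal day 28, when the first wave of spermatogenesis has begun to make spermatids. The genes were listed by name, with earlier results of these data known, and no measured value enters the rule: the serine protease genes Acr, Prss21, Prss37, Prss55 and Tmprss12, the hyaluronidase genes Spam1 and Hyal5, the convertase gene Pcsk4, and Acrv1 and Izumo1, which encode an acrosomal matrix protein and a sperm-egg fusion protein. They are 10 of the 50051 features in the long RNA files, and all 10 passed the filter on low counts that left 20782 features. By their labels, KO testes (Chr18-/-) lacked both working copies of a pachytene piRNA locus on chromosome 18. HT testes (Chr18+/-) lacked one, and WT testes (Chr18+/+) had both. All groups carry the strain label B6D2F1, and both HT and WT are labelled as controls. How the allele was made is not given in the sources used here. Stranded total RNA after ribosomal depletion was sequenced from 3 KO, 3 HT and 3 WT testis samples, and small RNA from 3 KO and 3 HT samples. Nothing in the labels says that the samples came from separate animals, so p-values measure only the spread between these samples, which may be technical.

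The acrosome is a secretory vesicle that spreads over the nucleus of the spermatid. It stores proteases, hyaluronidases and matrix proteins that are released or exposed when the sperm meets the egg coat, and it holds proteins that later bind the egg membrane. Spermatids transcribe many of these genes before the nucleus is packed with protamines. The study's title names overgrowth of the acrosome and infertility in mice without the locus, and the question here is how the RNA of these 10 genes stood in the 3 genotypes.

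Depth ranged from 21684791 to 41513634 counted fragments per long RNA library. Each of the 10 genes had 408 or more fragments in every library, the lowest being Tmprss12 in a WT library. An annotated precursor of the locus had 0.115 to 0.21 CPM in KO, 133 to 205 CPM in HT and 255 to 296 CPM in WT libraries, in the order of the labelled copy number. CPM (a count scaled to a common library total) is relative to the TMM-scaled library size. The fragments were counted over whole gene bodies, introns included, so unspliced RNA enters every level. The tissue label could be set against marker lists. Markers of germ cells from meiotic prophase to elongating spermatids, of Sertoli cells and of Leydig cells were detected, except Pou5f2, Cabs1 and Insl3. Summed epididymis markers ran from 4.23 to 7.86 CPM in KO, 3.96 to 16.3 CPM in HT and 4.05 to 34.5 CPM in WT libraries.

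Promoter sequence is shown for the 3 genes that bear letters known from work on testis promoters: Prss21 and Acrv1, whose RNA differed between genotypes, and Izumo1, whose RNA did not pass the test. RefSeq promoter records (GRCm38.p6) matched 7 of the 10 genes (Acr, Prss55 and Pcsk4 were not matched). Each run holds the 250 bases before the RefSeq start, 5′ to 3′ on the gene's strand, with matches on either strand in capitals. In Prss21 the capitals mark GTTGCC on the other strand, letters that RFX factors bind. In Acrv1 they mark GTGTGT on either strand, the letters through which TDP-43 is known to bind the mouse Acrv1 promoter. In Izumo1 they mark TGACGTCA, the cAMP response element bound by CREM in spermatids. A match describes the letters and is neither a site nor a cause.
Prss21, chr17:23867822-23868071, plus strand: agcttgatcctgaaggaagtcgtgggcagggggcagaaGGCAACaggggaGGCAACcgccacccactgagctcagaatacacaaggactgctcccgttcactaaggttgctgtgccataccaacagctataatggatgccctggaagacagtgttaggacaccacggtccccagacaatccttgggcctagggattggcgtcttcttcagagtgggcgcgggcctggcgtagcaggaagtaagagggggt
Acrv1, chr9:36692970-36693219, plus strand: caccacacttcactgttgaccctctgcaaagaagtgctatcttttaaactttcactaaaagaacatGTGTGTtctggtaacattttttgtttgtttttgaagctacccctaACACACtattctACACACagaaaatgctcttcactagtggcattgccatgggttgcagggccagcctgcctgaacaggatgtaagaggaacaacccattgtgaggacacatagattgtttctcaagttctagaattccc
Izumo1, chr7:45621561-45621810, plus strand: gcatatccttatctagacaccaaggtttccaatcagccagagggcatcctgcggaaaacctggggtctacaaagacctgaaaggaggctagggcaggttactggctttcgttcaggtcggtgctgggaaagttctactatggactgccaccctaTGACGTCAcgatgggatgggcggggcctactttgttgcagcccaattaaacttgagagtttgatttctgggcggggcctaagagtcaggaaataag
The GTTGCC matches of Prss21 begin 212 and 200 bases before the start, the GTGTGT matches of Acrv1 begin 184, 139 and 127 bases before it, and the TGACGTCA match of Izumo1 begins 96 bases before it. Over 32851 RefSeq promoters of the same length, searched on both strands, GTTGCC was present in 10.4%, GTGTGT in 14.9% and TGACGTCA in 1.55%. None of the 3 motifs was found in the windows of Prss37, Tmprss12, Spam1 or Hyal5. No motif overlapped another of a different kind in the windows shown.

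Between KO and HT testes none of the 10 genes was called. Every gene's KO range overlapped its HT range. The edgeR log2 fold changes lay between -0.14 (Spam1) and 0.12 (Acrv1), and their 95% intervals stayed within -0.41 and 0.50. No gene passed at an adjusted p under 0.05, none had an unadjusted p under 0.05 (the lowest was 0.289, for Spam1), and DESeq2 called none. In this contrast edgeR called 0.0289% of all features, which is 6 features, and 638 features had an unadjusted p under 0.05; DESeq2 called 17 features. The count of 6 became 18 without HT library 3. KO and HT ranges did not overlap for 8.31% of all features, against 0 of the 10 genes. The median log2 fold change was 0.04 over the 10 genes and 0.01 over all features. The sign of this contrast turned for single genes when a library was left out: Pcsk4 stood at -0.13 without KO library 1, and Prss37 at -0.09 and Prss55 at -0.10 without HT library 1, none of them called.

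Against WT, 1 of the 10 genes was higher and 3 were lower in KO testes, and the same numbers held for HT testes. In both contrasts Acrv1 was the higher gene, and Prss21, Prss55 and Pcsk4 were the lower ones. The KO and HT contrasts share the 3 WT libraries, so they are not independent, and their values are set side by side below. Over all features edgeR called 9.68% higher and 11.1% lower in KO against WT (20.8% in either direction), and 11.1% higher and 12.9% lower in HT against WT (23.9% in either direction). The features called in KO against WT numbered 4319, against 1899, 1805, 2760 and 2814 without KO library 2, KO library 3, WT library 2 and WT library 3. In HT against WT they numbered 4977, against 2432 without HT library 3 and 2901 without WT library 1. Ranges did not overlap for the same 4 of the 10 genes in each contrast. Over all features the KO range lay wholly above the WT range for 20.6% and below it for 22% (42.6% together), and the HT range above it for 20.5% and below it for 21.6% (42.1% together). The median log2 fold change of the 10 genes was -0.08 in KO against WT and -0.19 in HT against WT, beside -0.01 and 0 over all features. The count of 4 called genes in KO against WT was 2 without KO library 2, WT library 2 or WT library 3, 1 without KO library 3, and 2 with no scaling beyond library size. In HT against WT it was 1 without HT library 3, 2 without WT library 3, and 2 with no such scaling.

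**Figure D1:**
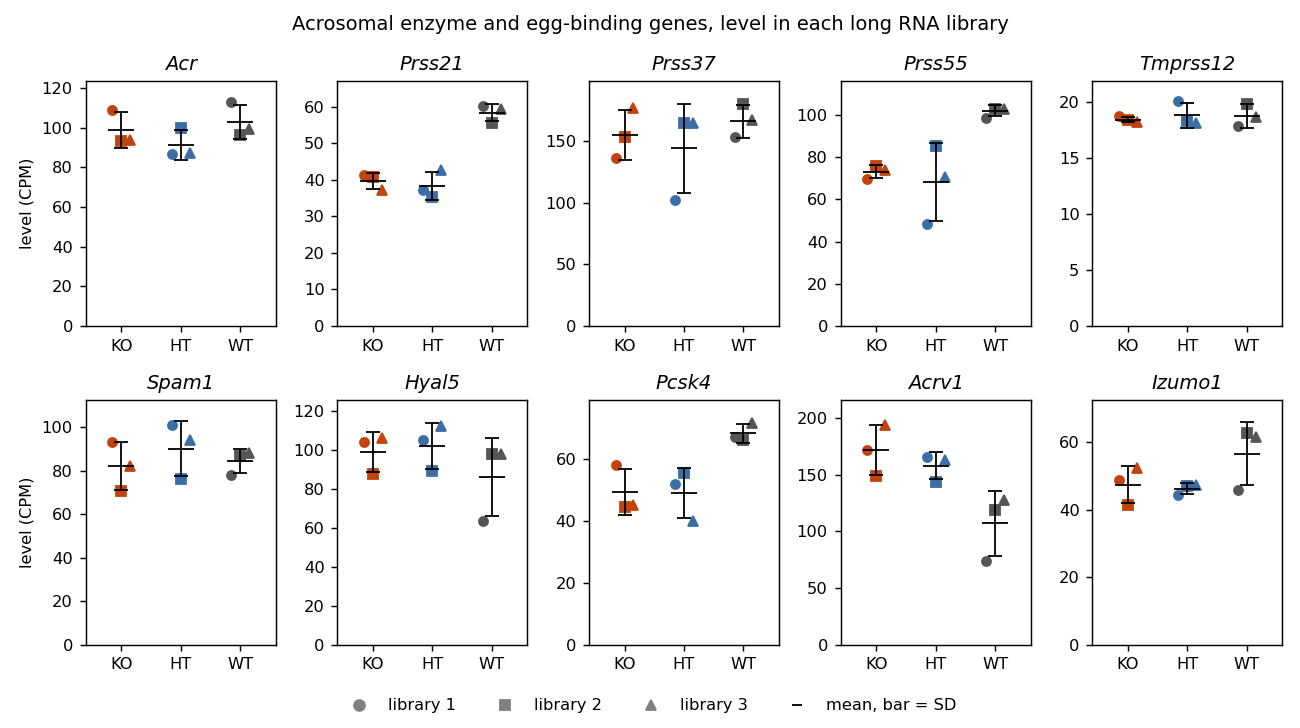
Level of each gene in CPM (vertical axes from 0) in the 3 KO, 3 HT and 3 WT long RNA libraries; marker shape gives the library number, which pairs nothing between groups, and black marks give the mean with its SD. Prss21, Prss55 and Pcsk4 lie lower in all KO and HT libraries than in any WT library, and Acrv1 lies higher in all of them.

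Among the serine proteases, the group that cuts proteins of the egg coat or matures other sperm proteins, Prss21 and Prss55 were lower in KO and HT than in WT testes, and the other 3 passed no test. Prss21 (ENSMUSG00000024116.5, chr17:23868056-23873114, plus strand, mm10) encodes testisin, a protease tethered to the membrane by a lipid anchor. Its level was 41.4, 40.7 and 37.3 CPM in KO libraries, 37.2, 35.3 and 42.6 CPM in HT libraries, and 60.1, 55.7 and 59.5 CPM in WT libraries. All 6 KO and HT values lay below all 3 WT values, while KO and HT values were interleaved. The level fell by 31.9% in KO against WT testes (log2 fold change -0.55, SE 0.09, edgeR adjusted p = 0.00314), and also fell in HT against WT testes (-0.61, SE 0.09, adjusted p = 0.00213). Prss21 kept both calls in all 16 alternative settings run, with an adjusted p of at most 0.019.

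Prss55 (ENSMUSG00000034623.14, chr14:64075438-64090162, minus strand) encodes a sperm surface protease that male mice need for fertility. Its level was 69.7, 75.7 and 73.8 CPM in KO libraries, 48.5, 85.4 and 70.8 CPM in HT libraries, and 98.5, 103 and 103 CPM in WT libraries. HT library 1 was the lowest of the 9 and HT library 2 the highest of the 6 KO and HT libraries, and HT libraries spread far more than KO or WT libraries (SD 3.04 in KO, 18.5 in HT and 2.63 in WT). Prss55 fell in KO against WT (log2 fold change -0.47, SE 0.16, edgeR adjusted p = 0.0481) and in HT against WT (-0.58, SE 0.16, adjusted p = 0.021). Without HT library 1 the value in HT against WT was -0.38 and still passed. The call in KO against WT stood close to the threshold and was lost in 10 of 16 alternatives. These were RLE scaling (adjusted p = 0.0554), no scaling (0.0856), both strands summed (0.0543) and the fits without KO library 1 (0.113), 2 (0.106) or 3 (0.108), HT library 3 (0.0568), or WT library 1 (0.086), 2 (0.107) or 3 (0.102). The call in HT against WT was lost in 4: no scaling (0.0534), and the fits without HT library 3 (0.0557), WT library 2 (0.052) or WT library 3 (0.051). Prss51 overlaps 26.7% of the Prss55 gene body on the opposite strand. Opposite-strand fragments came to 1.78% of those on the strand the kit reads, the most of the 10 genes (the lowest was 0.0564%, for Spam1).

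The other serine proteases did not pass in any contrast. Acr (ENSMUSG00000022622.4, chr15:89568326-89574585, plus strand) encodes acrosin, the best known acrosomal protease. It had 109, 93.1 and 93.8 CPM in KO libraries, 86.8, 100 and 87.4 CPM in HT libraries, and 113, 96.6 and 99.4 CPM in WT libraries. The groups overlapped, with a log2 fold change of -0.06 (95% interval -0.28 to 0.16, edgeR adjusted p = 0.701) in KO against WT and -0.17 (-0.39 to 0.05, adjusted p = 0.234) in HT against WT. Prss37 (ENSMUSG00000029909.6, chr6:40514824-40519508, minus strand) is a protease-like gene whose product is needed for sperm to carry the surface protein ADAM3. It had 136, 153 and 177 CPM in KO libraries, 102, 165 and 165 CPM in HT libraries, and 153, 180 and 167 CPM in WT libraries. HT library 1 was the lowest of the 9 here too, and all groups overlapped. The log2 fold change of Prss37 was -0.10 (95% interval -0.46 to 0.26) in KO against WT and -0.21 (-0.57 to 0.15) in HT against WT, where it was -0.01 without HT library 1. Tmprss12 (ENSMUSG00000045631.9, chr15:100280837-100293053, plus strand), a transmembrane protease gene needed for male fertility in mice, had the log2 fold changes nearest 0 of the 10 in both contrasts with WT. It had 18.7, 18.4 and 18.2 CPM in KO libraries, 20.1, 18.3 and 18.1 CPM in HT libraries, and 17.8, 19.8 and 18.6 CPM in WT libraries. Its log2 fold change was -0.02 (95% interval -0.23 to 0.18) in KO against WT and 0.01 (-0.19 to 0.21) in HT against WT.

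Neither hyaluronidase passed in any contrast. These enzymes cut the hyaluronan that binds the cumulus cells around the egg. Spam1 (ENSMUSG00000029682.5, chr6:24791188-24801048) and Hyal5 (ENSMUSG00000029678.8, chr6:24857997-24891958) lie next to one another in that order on the plus strand, and none of the 50-base stretches of either coding transcript occurs in a transcript of another gene. Spam1 had 93.2, 70.8 and 82.4 CPM in KO libraries, 101, 76.2 and 94 CPM in HT libraries, and 78.1, 86.9 and 88.2 CPM in WT libraries. Its groups overlapped, with a log2 fold change of -0.04 (95% interval -0.31 to 0.23) in KO against WT and 0.10 (-0.17 to 0.37) in HT against WT. Hyal5 had 104, 87.2 and 106 CPM in KO libraries, 105, 89 and 112 CPM in HT libraries, and 63.1, 97.5 and 97.5 CPM in WT libraries. WT library 1 was the lowest of the 9 for Hyal5, and its log2 fold change was 0.20 (95% interval -0.14 to 0.54) in KO against WT and 0.25 (-0.09 to 0.59) in HT against WT. Without WT library 1 these values were 0.02 in KO against WT and 0.07 in HT against WT.

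Pcsk4, the convertase that processes proteins of the sperm surface, fell in both contrasts with WT. Pcsk4 (ENSMUSG00000020131.14, chr10:80321283-80329498, minus strand) had 58.1, 44.7 and 45.3 CPM in KO libraries, 52.1, 55.5 and 40 CPM in HT libraries, and 67.1, 66.3 and 71.9 CPM in WT libraries. KO and HT values were interleaved, and all of them lay below the lowest WT value. The level fell by 27.9% in KO against WT (log2 fold change -0.47, SE 0.13, edgeR adjusted p = 0.0272) and by 28% in HT against WT (-0.47, SE 0.13, adjusted p = 0.0239). The call in KO against WT was lost with no scaling (adjusted p = 0.0721) and without KO library 2 (0.108), KO library 3 (0.109), WT library 1 (0.056), WT library 2 (0.0558) or WT library 3 (0.0785). The call in HT against WT was lost with no scaling (0.0944) and without HT library 3 (0.0833), WT library 1 (0.0562) or WT library 3 (0.0676).

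Acrv1 was the only one of the 10 genes to rise against WT. Acrv1 (ENSMUSG00000032110.4, chr9:36693220-36698843, plus strand) encodes SP-10, a protein of the acrosomal matrix first made in early round spermatids. It had 172, 149 and 194 CPM in KO libraries, 166, 144 and 163 CPM in HT libraries, and 73.7, 119 and 128 CPM in WT libraries. All KO and HT values lay above the highest WT value, and WT library 1 stood well below the other WT libraries. Acrv1 was 1.61-fold higher in KO than in WT (95% interval 1.24 to 2.09, log2 fold change 0.69, SE 0.17, edgeR adjusted p = 0.0173). In HT it was 1.48-fold higher than in WT (1.14 to 1.92, log2 fold change 0.57, SE 0.17, adjusted p = 0.0337). The call in KO against WT was lost in 1 of 16 alternatives, without KO library 3 (adjusted p = 0.0738). The call in HT against WT was lost in 4: with only the groups compared in the fit (0.0514), and without HT library 1 (0.0678), HT library 3 (0.0944) or WT library 1 (0.0592). Without WT library 1 the log2 fold change of Acrv1 in HT against WT was 0.36.

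Izumo1 (ENSMUSG00000064158.6, chr7:45621811-45628823, plus strand), whose product binds the receptor JUNO on the egg, was not called in either contrast with WT. It had 48.7, 41.5 and 52.3 CPM in KO libraries, 44.4, 47.1 and 47.5 CPM in HT libraries, and 45.8, 62.8 and 61.5 CPM in WT libraries. WT library 1 lay within the KO and HT values and the other WT libraries lay above all of them. The log2 fold change was -0.25 (95% interval -0.53 to 0.02, edgeR adjusted p = 0.166) in KO against WT and -0.29 (-0.56 to -0.02, adjusted p = 0.109) in HT against WT. Without WT library 1, Izumo1 passed in both, at -0.39 (adjusted p = 0.0316) in KO against WT and -0.42 (adjusted p = 0.0246) in HT against WT. Rasip1 overlaps 19.1% of the annotated Izumo1 gene body on the same strand, and fragments in that stretch were counted for neither gene.

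**Figure D2:**
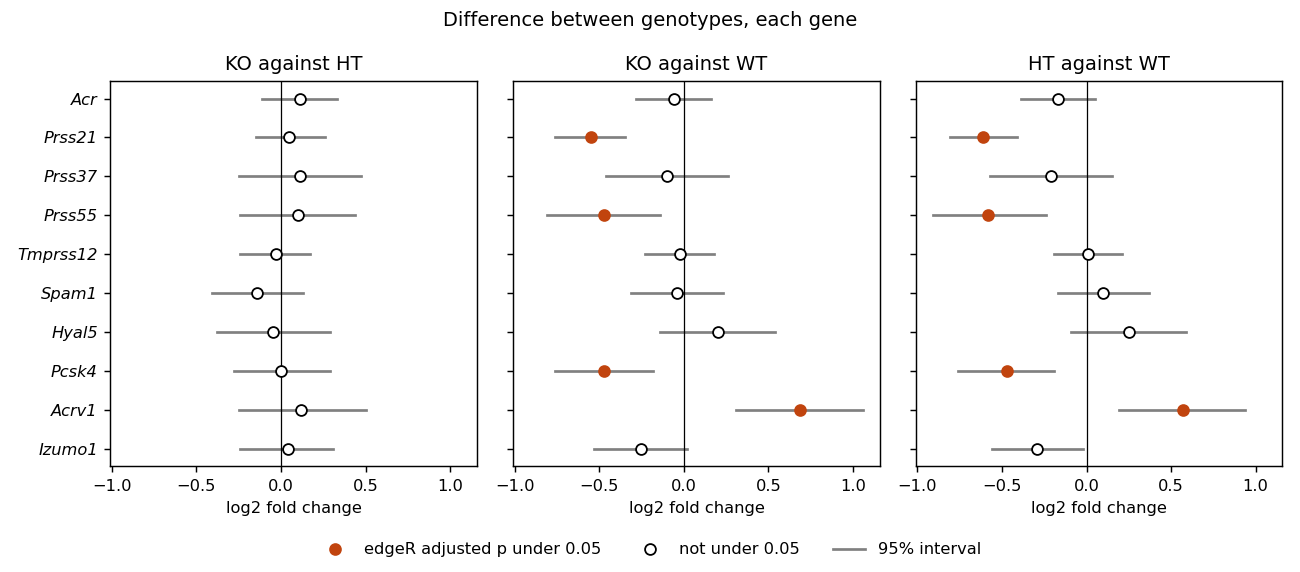
Log2 fold change (horizontal axes) of each gene in KO against HT, KO against WT and HT against WT, with 95% intervals as lines; filled points passed the edgeR test at an adjusted p under 0.05. No point is filled in KO against HT, and Prss21, Prss55, Pcsk4 and Acrv1 are filled in both contrasts with WT, which share the WT libraries.

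Levels were also compared between genes, as mean CPM per kilobase of each gene's longest coding transcript. Since introns were counted, this scale gives an order rather than a transcript number. In KO testes the order was led by Acrv1, with 156 ± 20.4, and Prss37, with 148 ± 19.6 CPM per kb (SD, n = 3), and these neighbours overlapped. In HT testes they stood at 143 ± 10.8 for Acrv1 and 137 ± 34.7 for Prss37 and overlapped too. In WT testes Prss37 led with 159 ± 12.9 CPM per kb, its lowest library above the highest for Acrv1, which averaged 97.1 ± 26.4 and overlapped Prss55, at 94.5 ± 2.42 CPM per kb. Prss55 and Acr came next in KO (68 ± 2.86 and 65.6 ± 5.97) and in HT (63.5 ± 17.3 and 60.8 ± 4.96), overlapping in each, while in WT Acr, at 68.5 ± 5.83, lay below Prss55 with no overlap. The place of Prss21 differed between groups, at 36.4 ± 2 and 35.1 ± 3.46 CPM per kb and the seventh place in KO and HT, against 53.4 ± 2.18 and the fifth place in WT. Hyal5 and Spam1 overlapped in each group, between means of 39 and 49.3 CPM per kb, and the ranges of Izumo1 overlapped those of the gene ahead of it in KO and WT but not in HT. Pcsk4 (19.4 ± 2.98 in KO, 19.4 ± 3.21 in HT, 27 ± 1.19 in WT) and Tmprss12 (13.5 ± 0.185 in KO, 13.8 ± 0.809 in HT, 13.8 ± 0.739 in WT) were the lowest, apart from one another and from the rest in all groups. The annotated exons of Acrv1 cover 3647 bases beside a coding transcript of 1101 bases, and over all exons its mean was 47.1 CPM per kb in KO, 43.2 in HT and 29.3 in WT, below Prss37 and Acr with no overlap in any group. Its mean on this scale was also below that of Prss55, with overlapping ranges in KO (40.9 to 53.1 for Acrv1 and 49.7 to 53.9 for Prss55) and HT (39.5 to 45.5 and 34.6 to 60.8) and none in WT (20.2 to 35 and 70.2 to 73.6). The summed level of the 10 genes overlapped between groups, at 774.4 to 879.5 CPM in KO, 763.1 to 840.5 CPM in HT and 769.7 to 894 CPM in WT libraries.

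**Figure D3:**
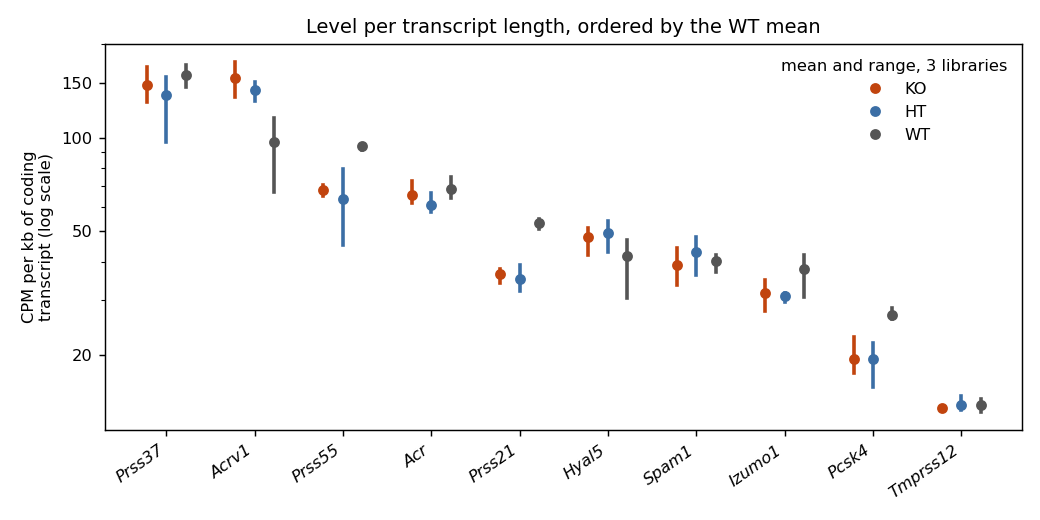
Mean level (points) and range over 3 libraries (lines) in CPM per kilobase of the longest coding transcript, on a log axis, with KO left of HT and WT for each gene. Acrv1 stands higher in KO and HT than in WT, Prss21, Prss55 and Pcsk4 lower, and Tmprss12 is lowest in every group.

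Levels in whole testis combine the make-up of the tissue and the RNA per cell, so fewer cells of a type and less RNA per cell cannot be told apart. Markers of some germ cell stages differed between WT and both other genotypes beside the 4 called genes. No tested marker of any list was called in KO against HT. The labels name no batch, so genotype and the collection of the samples cannot be told apart in the contrasts with WT. The marker counts stand beside the 20.8% of all features called in KO and 23.9% in HT against WT. Of 13 tested markers of elongating spermatids, 6 were lower in KO against WT and 8 in HT against WT, with summed levels of 8960 to 11900 CPM in KO, 5380 to 13300 CPM in HT and 16000 to 16600 CPM in WT libraries; Cabs1 of that list was at 0. Of 9 round spermatid markers, 2 were lower in KO and 3 in HT against WT, with sums of 1250 to 1460 CPM in KO, 1160 to 1430 CPM in HT and 1650 to 1780 CPM in WT libraries. Of 10 markers of early meiotic prophase, 10 were higher in KO and 8 in HT against WT, with sums of 2150 to 2440 CPM in KO, 1950 to 2490 CPM in HT and 1480 to 1600 CPM in WT libraries. Of 6 tested markers of pachytene and secondary spermatocytes, none was called in KO and 1 (Ccna1) was lower in HT against WT, with medians of -0.04 and -0.11 and sums of 4180 to 4430 CPM in KO, 4070 to 4230 CPM in HT and 4390 to 4690 CPM in WT libraries; Pou5f2 of that list was at 0. Leydig cell markers were lower for 6 of 8 in each contrast, with sums of 513 to 690 CPM in KO, 556 to 723 CPM in HT and 1220 to 1350 CPM in WT libraries. Insl3 of that list was at 0. Fragments in stretches shared by genes on the same strand were counted for neither gene. A count of 0 for Cabs1, Pou5f2 or Insl3 therefore need not mean that the RNA was absent, and the reason was not tested. HT library 1, lowest of all for Prss55 and Prss37, had the lowest elongating spermatid sum (5380 CPM). WT library 1, lowest for Acrv1 and Hyal5, had an elongating spermatid sum of 16200 CPM, between the other WT libraries. On 3 other lists it had the lowest sum of the WT libraries. These were early meiotic prophase (1480 CPM), pachytene and secondary spermatocytes (4390 CPM) and round spermatids (1650 CPM). The part of these markers in the differences of the 10 genes was not tested.

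**Figure D4:**
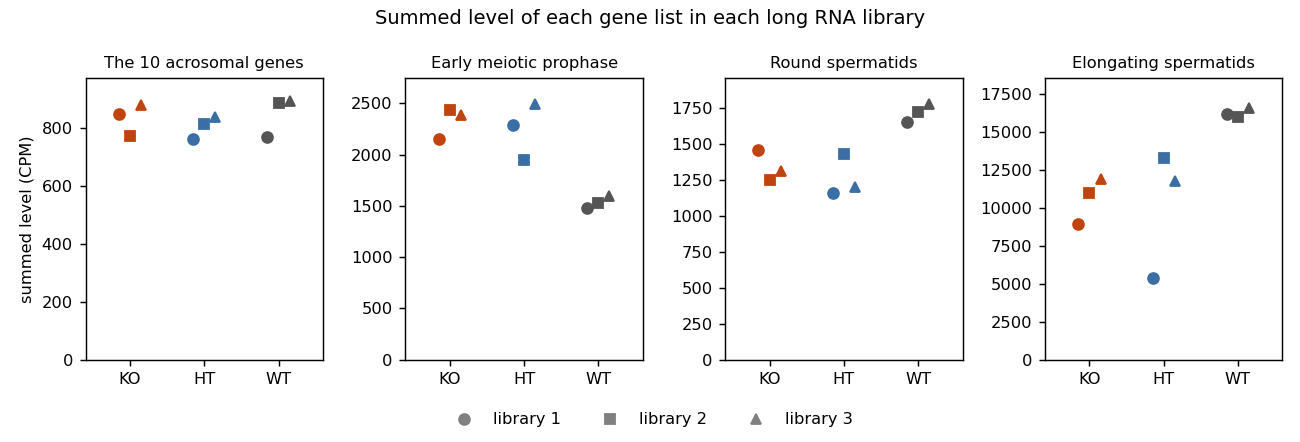
Summed level in CPM (vertical axes from 0) of the 10 acrosomal genes and of 3 germ cell marker lists in each long RNA library, KO, HT and WT from left to right, with marker shape for the library number. The sum over the 10 genes overlaps between groups, while early meiotic markers lie higher and spermatid markers lower in all KO and HT libraries than in WT.

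The wider set of acrosomal and fertilization genes was taken from 6 lists of 72 genes, of which 70 were tested. None of the 70 was called in KO against HT by edgeR. In KO against WT 2 rose and 9 fell, 15.7% of those tested, beside 20.8% of all features, and in HT against WT 3 rose and 14 fell, 24.3%, beside 23.9% of all features. The calls in KO against WT depended on single libraries: of the 11, 8 were lost without KO library 2 (adjusted p 0.051 to 0.17), 7 without KO library 3 (0.0522 to 0.171), 4 without WT library 3, and 3 each without WT library 1 or 2. In HT against WT, of the 17, 8 were lost without HT library 3 (0.0599 to 0.13), 7 without WT library 3, and 6 each without WT library 1 or 2. Calls also depended on the processing. With no scaling, 2 of the 11 (edgeR adjusted p 0.101 to 0.133) and 7 of the 17 (0.0577 to 0.241) were lost. With only the groups compared in the fit, 1 of the 11 (0.0644) and 6 of the 17 (0.0528 to 0.0872) were lost. For single genes below, only losses on leaving out a library are named. Of these calls 3 in KO against WT and 9 in HT against WT were kept in all 16 alternatives.

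Genes of sperm-egg adhesion and fusion, the group of Izumo1, were called lower for 4 of 14 in each contrast with WT, and none higher. Over all features edgeR called 11.1% lower and 9.68% higher in KO against WT. In HT against WT it called 12.9% lower and 11.1% higher. The median log2 fold change of the list was -0.23 in KO and -0.25 in HT against WT. Izumo4, a family member of Izumo1, averaged 58.1 CPM in KO, 60.9 CPM in HT and 96.3 CPM in WT testes, with log2 fold changes of -0.73 (SE 0.11, edgeR adjusted p = 0.00171) in KO and -0.66 (SE 0.11, adjusted p = 0.00319) in HT against WT, both kept in all alternatives. Arsa, an arylsulfatase also found on the sperm surface, stood at 71.7 CPM in KO and 66.5 CPM in HT, against 107 CPM in WT testes (adjusted p = 0.0129 and 0.00617), and lost the KO call without KO library 2 or 3 (0.0537 to 0.061). Dcst1, whose product sperm need to fuse with the egg, was at 32.3 CPM in KO and 32.2 CPM in HT, against 45.3 CPM in WT (adjusted p = 0.0125 and 0.0112), and lost the KO call without KO library 2 or 3 (0.0583 to 0.0597). Its partner Dcst2 passed in KO against WT (-0.33, adjusted p = 0.0479) and not in HT against WT (-0.31, adjusted p = 0.054); the KO call was lost without KO library 2 or 3, HT library 1 or 2, or any WT library (0.0529 to 0.171). Tmem95, another fusion gene, passed in HT against WT (-0.60, adjusted p = 0.0288), and lost the call without HT library 1 or 3 or WT library 1 or 3 (0.0603 to 0.0997).

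Other testis serine proteases were called lower for 3 of 15 in KO and 4 of 15 in HT against WT, and none higher. Beside them stand 11.1% of all features lower in KO and 12.9% in HT. The list median was -0.27 in each contrast. Prss54, an acrosomal protease-like gene, averaged 62.7 CPM in KO, 63.5 CPM in HT and 91.4 CPM in WT testes (log2 fold change -0.54, edgeR adjusted p = 0.00472 in KO and -0.52, adjusted p = 0.00517 in HT against WT), and kept both calls in all alternatives. Prss39, an acrosomal protease gene, averaged 188 CPM in KO and 169 CPM in HT, against 258 CPM in WT. Its log2 fold change was -0.46 (adjusted p = 0.0295) in KO, lost without KO library 2 or 3 or any WT library (0.0592 to 0.108), and -0.61 (adjusted p = 0.00831) in HT against WT. Prss40 passed at -0.45 in KO (adjusted p = 0.0302, 0.052 to 0.12 without any KO library or WT library 2 or 3) and -0.44 in HT (0.0288, with 0.0567 to 0.0992 without HT library 1 or 3 or WT library 2 or 3). Prss46 passed in HT against WT alone (-0.32, adjusted p = 0.0447), where its call was lost without KO library 3, any HT library or WT library 2 or 3 (0.0547 to 0.132), and its value in KO against WT was -0.30 (adjusted p = 0.0583).

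Acrosomal matrix and membrane genes, the group nearest to Acrv1, fell for 1 of 17 in KO and 4 of 17 in HT against WT, beside 11.1% and 12.9% of all features. None rose, and the list medians were -0.04 and -0.06. Spaca4, a lipid-anchored acrosomal membrane protein, averaged 32.5 CPM in KO, 33.7 CPM in HT and 59.9 CPM in WT testes (log2 fold change -0.88, edgeR adjusted p = 0.0107 in KO, and -0.83, adjusted p = 0.0125 in HT). Its KO call was lost without KO library 2 (0.051). In HT against WT alone passed Dpep3, a dipeptidase of the sperm surface (-0.36, adjusted p = 0.0238, lost without HT library 3 or WT library 1 at 0.0788 to 0.0797), and Spaca9, an acrosome-associated protein gene (-0.48, adjusted p = 0.0329, lost without HT library 3 or any WT library at 0.0599 to 0.0896). Acrbp, the partner of proacrosin, passed there as well (-0.27, adjusted p = 0.0418), and lost its call without KO library 2 or 3, HT library 1 or 3 or any WT library (0.0558 to 0.111). The sum of this list overlapped between groups, at 4170 to 4590 CPM in KO, 3890 to 4520 CPM in HT and 3840 to 4530 CPM in WT libraries.

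Among 7 tested convertases related to Pcsk4, 1 rose in KO against WT, and 2 rose and 1 fell in HT against WT. Over all features 9.68% were called higher in KO, and 11.1% higher and 12.9% lower in HT against WT. Of the convertases, Pcsk5 rose in both contrasts, averaging 32.1 CPM in KO and 33.3 CPM in HT, against 14.9 CPM in WT testes. Its log2 fold change was 1.11 (SE 0.24, edgeR adjusted p = 0.00894) in KO and 1.16 (SE 0.24, adjusted p = 0.00714) in HT against WT, kept in all alternatives. In HT against WT alone, Pcsk2 rose (0.90, adjusted p = 0.0382, lost without HT library 2 or 3 or any WT library at 0.0565 to 0.14) and Furin fell (-0.46, adjusted p = 0.0438, lost in 8 of the 9 fits without 1 library, all but HT library 1, at 0.0551 to 0.162). None of the 5 other hyaluronidases passed in either contrast with WT. Among 12 chaperones and processing factors for sperm surface proteins, Ace fell and Pgap1 rose in both contrasts. Ace, the peptidase whose testis form sperm need, averaged 264 CPM in KO and 248 CPM in HT, against 411 CPM in WT (-0.64, adjusted p = 0.0219, and -0.73, adjusted p = 0.0119), and lost the KO call without any KO library or WT library 1 (0.0583 to 0.0686). Pgap1, an enzyme that remodels lipid anchors, averaged 21.3 CPM in KO and 22.5 CPM in HT, against 16.3 CPM in WT (0.38, adjusted p = 0.0205, and 0.46, adjusted p = 0.00882), and lost the KO call without KO library 2 or 3 or WT library 3 (0.0614 to 0.0796).

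**Figure D5:**
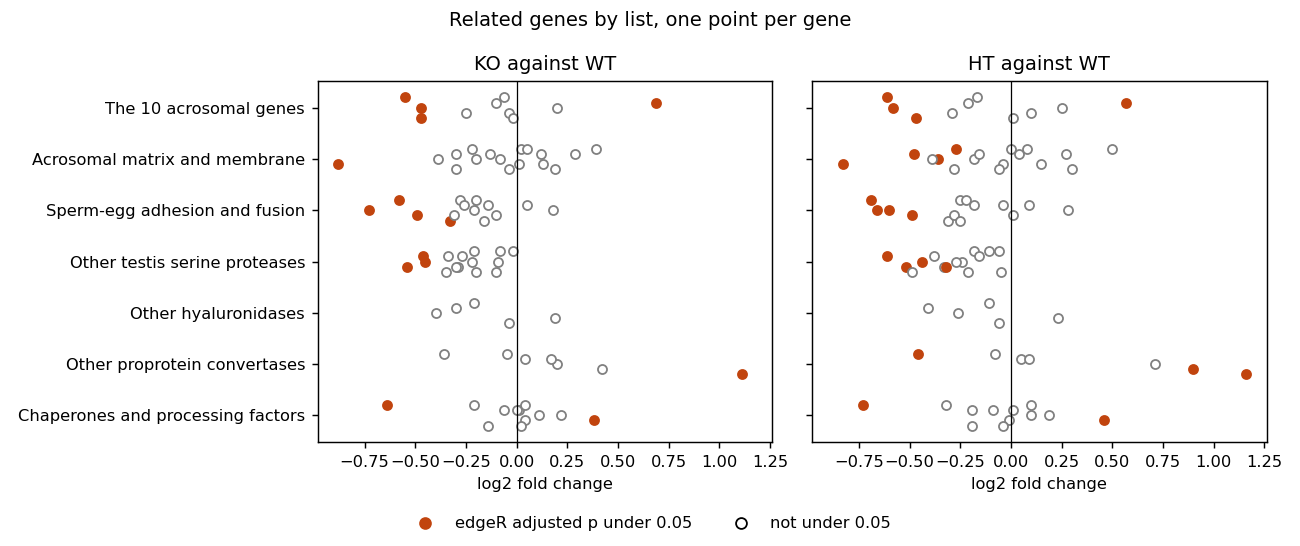
Log2 fold change (horizontal axes) of the 10 acrosomal genes and of each gene in 6 related lists (rows) in KO against WT and HT against WT; each point is 1 gene, spread vertically for sight, and filled points passed the edgeR test at an adjusted p under 0.05. Every filled point lies below 0 among the adhesion and fusion genes, the other testis serine proteases and the acrosomal matrix and membrane genes. These 3 lists have 1 to 4 filled points each in a panel.

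The gene whose level ran most like each of the 10 over the 9 long RNA libraries was sought among 9271 genes with a mean of at least 10 CPM, by Pearson's r of log2 CPM, as a description. The libraries fall into 3 genotypes and share their depth and tissue make-up. Prss21 ran most like Cmc2 (r = 0.99), Pcsk4 like Spsb2 (r = 0.99), Prss55 like Gabarapl1 (r = 0.99) and Acrv1 like Med9os (r = 0.98). The log2 fold changes in KO against WT were -0.79 for Cmc2, -0.59 for Spsb2, -0.50 for Gabarapl1 and 0.32 for Med9os. Each gene was picked over the same 9 libraries that form the contrast, so its direction follows from the choice. The best r of 9271 is also raised by the search itself. Hyal5 ran most like Adam24 (r = 0.97), Prss37 like Pdpk1 (r = 0.97), Acr like Gga3 (r = 0.96), Izumo1 like Aven (r = 0.95) and Spam1 like Mdm1 (r = 0.91). Tmprss12 had the lowest best match, Hacd1 (r = 0.85).

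Small RNA over these genes was near the limit of counting. After a periodate step that favours RNAs with a protected end such as piRNAs, the libraries held 939641 to 1861402 counted reads, and sense reads over the exons of all 10 genes came to 36 in the 3 KO libraries and 49 in the 3 HT libraries. That is 9.36 CPM (here relative to the plain library total) in KO (exact 95% interval 6.56 to 13) and 12.4 CPM in HT (9.15 to 16.3), intervals that cover counting error only and overlap. Tmprss12 had 12 reads in KO and 10 in HT, Acr 7 in KO and 13 in HT, and Acrv1 4 in KO and 11 in HT. Prss55 had none in 7807486 reads, where a count of 0 allows up to 0.384 CPM (3 reads). None of the 10 genes passed the filter on low counts, so the main fit made no test for them. With no filter, 9 of the 10 were tested in KO against HT and none was called. Over the 3581 genes tested in the main fit, 0.0279% were called in KO against HT, which is 1 gene, against 617 without HT library 1.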

How the data were processed

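Long RNA was measured in testis of 3 KO, 3 HT and 3 WT samples, small RNA in 3 KO and 3 HT samples. The authors deposited raw counts per feature, not normalized. Per the file headers, featureCounts 1.6.2 counted fragments over gene bodies with GENCODE release 12 genes for long RNA, and featureCounts 1.6.1 counted reads over exons for small RNA. The submitters' processing notes name cutadapt 1.18, HISAT2 2.1.0, Bowtie2 2.2.5 and SAMtools 1.9, with the mm10 and mm9 builds and no roles. Counts of the strand the kit reads were used, and the opposite strand held 8.81 to 10.7% as much. Coordinates are those of the files and equal the mm10 annotation, except that the end of Tmprss12 differed by 13 bases. Gene symbols were matched for 49326 of 49585 gene IDs.

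Features were filtered with filterByExpr, scaled by TMM and tested with the edgeR 4.0.16 quasi-likelihood test (limma 3.58.1, R 4.3.3), with all 9 long RNA libraries in 1 fit and all 6 small RNA libraries in another. Adjusted p-values are Benjamini-Hochberg over all features, with a threshold of 0.05. The SE of a log2 fold change is its size divided by the root of the F statistic. The code was tested on simulated data. Libraries are named by group and number, and long RNA numbers follow sample order and pair nothing. No pair of replicates agreed within sampling noise (chi-square per degree of freedom 2.96 to 46.8 in long RNA, 1.76 to 18.1 in small RNA). The lowest long RNA value was that of WT libraries 2 and 3, against 43.9 and 46.8 for their pairs with WT library 1. In small RNA the lowest was that of HT libraries 2 and 3, against 16.8 and 18.1 for their pairs with HT library 1. The 16 alternatives were DESeq2 1.42.0, RLE scaling, library size alone without scaling factors, no filter on low counts, a filter at a mean of 1 CPM, the sum of both strands, a fit of the 2 groups in question alone, and each of the 9 libraries left out. The text names all 10 genes, list genes called in a contrast (at most 4 per list and contrast, by adjusted p), and for each of the 10 the most alike gene. The 10 genes and the lists were chosen with earlier results of these data known. Protein sequences were not used here.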

Additional observations from a re-analysis of the deposited data

How the results depend on the processing

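Prss21 kept its direction and its calls in KO and HT against WT in all 16 alternatives, and every other called value of the 10 genes kept its direction there. The number of the 10 genes called in KO against WT was 4, and 2 with no scaling, with 1 to 4 when 1 library was left out. In HT against WT it was 4, and 2 with no scaling, with 1 to 4 when 1 library was left out. In KO against HT it was 0 throughout, and values turned sign and moved by over 1 SE for Pcsk4 (-0.13 to 0.10 over all alternatives), Prss37 (-0.09 to 0.22) and Prss55 (-0.10 to 0.29). Over all features, KO against HT had 6 calls, 17 with DESeq2, 13 with no filter and 4 to 18 with 1 library left out. KO against WT had 1805 to 4737 and HT against WT 2432 to 4720 with 1 library left out. With no scaling, 56.9% of calls in KO against WT and 66.8% in HT against WT were higher, against 46.6% and 46.3% with TMM scaling, and the median of all features in HT against WT moved to 0.10. Small RNA had 1 call, 43 with no filter, 0 to 617 with 1 library left out (617 without HT library 1), and 0 with the replicate block. Deviations from the group means, in KO and HT libraries of the same label number, correlated at -0.16, 0 and -0.09. With 3 libraries a group these values cannot settle whether the numbers pair samples, and the labels do not say. Fits with fewer libraries hold fewer samples by construction; for the other changes the cause was not tested.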
